A study of Homo sapiens with 32 samples.

Results

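The kinases described here are 8 human genes whose products phosphorylate splicing proteins: CLK1, CLK2, CLK3, CLK4, SRPK1, SRPK2, PRPF4B and DYRK1A. They were chosen by name, as every transcript of these genes whose RefSeq identifier, without its version, is listed in the deposited tables. That gave 16 transcripts and 8 of the 18858 genes with a matched transcript. RNA was sequenced from 4 long-established lines of human tumour cells: the melanoma line A375, the breast cancer lines MDA-MB-231 and Cal51, and the colorectal line DLD1. For every line there were G579S cells and wild-type cells, and each kind received the kinase inhibitor OTS964 at 100 nM or its solvent DMSO for 6 h. Thus each line had 4 groups, G579S with OTS964, wild-type with OTS964, G579S with DMSO and wild-type with DMSO, with 2 libraries in each of 16 groups and 32 libraries in all. As background, OTS964 inhibits CDK11, and G579S is a substitution in CDK11B that makes cells resistant to it. The sources used here do not give how the G579S cells were made or whether each line is 1 clone.

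SR proteins bind exons and splice sites through a tail rich in serine and arginine, and the phosphorylation of that tail sets where they are and what they bind. SRPK1 and SRPK2 phosphorylate it in the cytoplasm, which lets the importer TNPO3 carry SR proteins into the nucleus. CLK1 to CLK4 phosphorylate it further inside the nucleus and release SR proteins from nuclear speckles. The CLK genes are also known for pre-mRNAs that keep introns and stay in the nucleus until the kinase is needed. PRPF4B acts on the tri-snRNP, the particle of U4, U5 and U6 snRNPs that joins the spliceosome, and DYRK1A is a speckle-associated kinase of the DYRK family that also phosphorylates cyclin L2 and SF3B1.

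Libraries held between 16091376 and 29742687 estimated reads, of which 85.62% to 89.37% fell on transcripts matched to a gene. No label tells whether libraries of 1 group came from separate cultures, so the spread within groups may be technical only. P-values within lines rest on that spread, estimated over all 16 groups in 1 fit. P-values across lines also take in the differences between lines in the response. The libraries labelled DLD1 wild-type did not carry the markers of that line. Their summed melanocyte markers (10 genes, 2 of them at 0 in all 4 libraries) lay between 969 and 1225 TPM, against 36.4 to 45.9 TPM in the libraries labelled DLD1 G579S. Their summed colorectal epithelial markers (10 genes, 1 at 0 in all 4) lay between 672 and 858 TPM, against 11768 to 13552 TPM in DLD1 G579S. Their summed mesenchymal markers (9 genes) lay between 3814 and 4251 TPM, against at most 45.1 TPM in DLD1 G579S and 5048 TPM in MDA-MB-231 wild-type. A375 wild-type reached 4100 TPM here, 888 TPM in the melanocyte sum and 555 TPM in the colorectal sum. The melanocyte sum reached 1538 TPM in A375 G579S, 30.2 TPM in Cal51 and 11.4 TPM in MDA-MB-231. Whether the cells labelled DLD1 wild-type are a line apart from A375 was not tested, so 4 wild-type lines below means 4 labels. The name is kept here as a label, and any DLD1 contrast of genotypes compares cells that differ in these markers. Fits of the members across lines were repeated without these libraries or without all DLD1 libraries, and changes of a call are given. The other gene lists were tested only with these libraries. Replicates lay farthest apart in Cal51 G579S with DMSO and in MDA-MB-231 wild-type with OTS964, with a chi-square over genes of 87.0 and 85.7 per degree of freedom, against 5.68 to 47.8 in the other 14 groups. CDK11B itself stood at a mean of 639 CPM in the MDA-MB-231 G579S DMSO libraries and 59.1 CPM in the wild-type ones, and between 32.5 and 52.4 CPM in the DMSO groups of the other lines. Its part in any difference between the genotypes of that line was not tested.

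Of the member transcripts, the pair from CLK1 carried a result of its own, so the sequence where they part is shown first. In the human annotation (GENCODE v29, GRCh38) CLK1 lies on the minus strand of chromosome 2. Exon ends given here are those of the GENCODE transcripts tied to the 2 RefSeq identifiers. The RefSeq promoter windows used below do not place every start at these ends, so the RefSeq sequences that were quantified may end elsewhere. NM_004071 starts with a noncoding first exon of 136 bases at chr2:200864564-200864699, followed by an intron of 2701 bases at chr2:200861863-200864563. NM_001162407 starts 2 bases inside that intron, with a first exon of 461 bases at chr2:200864101-200864561, and both then use the same 12 coding segments. It therefore adds 42 codons before the start codon of NM_004071, and reads can tell the transcripts apart mainly in sequence that is intron for NM_004071. Other differences are the first exon of NM_004071 and the length of the last exon, with 441 bases in NM_004071 and 254 bases in NM_001162407. The 30 bases across the end of the first exon of NM_004071 (chr2:200864549-200864578, minus strand, 5′ to 3′) have the first 2 bases of the intron in capitals, and NM_001162407 starts directly after them.
CLK1 exon 1 end: tctttgtccaggacgGTaagacgcaggagg

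Upstream sequence is shown for CLK1, CLK4 and SRPK2, which fell with OTS964 in wild-type cells, to give the letters behind the motif counts. Sequences are from RefSeq promoter windows (GRCh38.p14, 250 bases before to 50 after a gene's start), left out where an exon of the gene is annotated. All 8 genes matched, with 18 windows. Capitals mark the motifs searched on both strands: CACGTG (E-box), TGACGTCA (CRE), TGANTCA (AP-1 site), GGGCGG (GC box) and CCAAT. Overlapping matches of the same motif were joined in the print.
CLK1 (chr2:200864745-200864908, minus strand): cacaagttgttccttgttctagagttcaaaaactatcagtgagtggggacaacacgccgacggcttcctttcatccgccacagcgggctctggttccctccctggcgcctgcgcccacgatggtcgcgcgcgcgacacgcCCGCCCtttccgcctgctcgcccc
CLK4 (chr5:178627115-178627300, minus strand): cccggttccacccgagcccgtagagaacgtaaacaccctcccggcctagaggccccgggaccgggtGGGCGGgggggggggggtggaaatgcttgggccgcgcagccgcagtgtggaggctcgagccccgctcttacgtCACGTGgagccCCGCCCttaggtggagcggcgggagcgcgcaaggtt
SRPK2 (chr7:105388899-105389171, minus strand): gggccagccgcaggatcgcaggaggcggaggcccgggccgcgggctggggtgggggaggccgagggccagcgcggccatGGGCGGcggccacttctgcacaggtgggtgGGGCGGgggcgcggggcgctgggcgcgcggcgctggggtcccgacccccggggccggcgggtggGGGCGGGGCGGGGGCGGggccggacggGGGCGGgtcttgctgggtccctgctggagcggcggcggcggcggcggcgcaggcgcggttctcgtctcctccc
A GC box was found in 11 of 18 member windows, with at least 1 in each gene, and in 44.95% of all 35116 windows. An E-box was found in 3 of 18 member windows, of CLK2, CLK4 and DYRK1A, and in 7.26% of all windows. CCAAT was found in 4 of 18 member windows, of CLK3, DYRK1A and PRPF4B, and in 34.61% of all windows. The AP-1 letters occurred in 1 of 18 member windows, of DYRK1A, and in 7.71% of all windows, and the CRE letters in 0 of 18 member windows and 1.85% of all. These matches describe letters and not binding.

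In wild-type DMSO cells, levels per transcript length differed widely between the members. SRPK1 was the highest, at a mean of 81.9 ± 60.1 TPM over the 8 libraries (SD, n = 8 from 4 lines as labelled). CLK3 followed at 26.9 ± 3.14 TPM, SRPK2 at 25.0 ± 2.01 TPM and CLK1 at 14.5 ± 2.58 TPM. The ranges of CLK3, 21.1 to 31.9 TPM, and SRPK2, 22.1 to 27.9 TPM, overlapped, while CLK1 stayed below both at 11.1 to 17.8 TPM. PRPF4B at 3.11 ± 1.48 TPM, CLK2 at 2.94 ± 1.23 TPM and CLK4 at 2.52 ± 0.843 TPM overlapped each other. DYRK1A was at 0.60 ± 0.918 TPM, with its matched transcripts at 0 reads in 3 of these 8 libraries.

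CLK2 and DYRK1A could hardly be measured through their matched transcripts. CLK2 rested on 1 transcript with 0 reads in 9 of 32 libraries and at most 166 reads. DYRK1A rested on 4 transcripts, also with 0 reads in 9 of 32 libraries and at most 174 reads. Replicates of 1 group could differ from 0 to over 100 reads, so these values are listed and no direction is read from them. Reads on predicted or numbered transcripts that the tables do not tie to a gene were not used here, also for the other members. In such bulk RNA, fewer cells that hold a transcript and less of it per cell cannot be told apart.

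**Figure D1:**
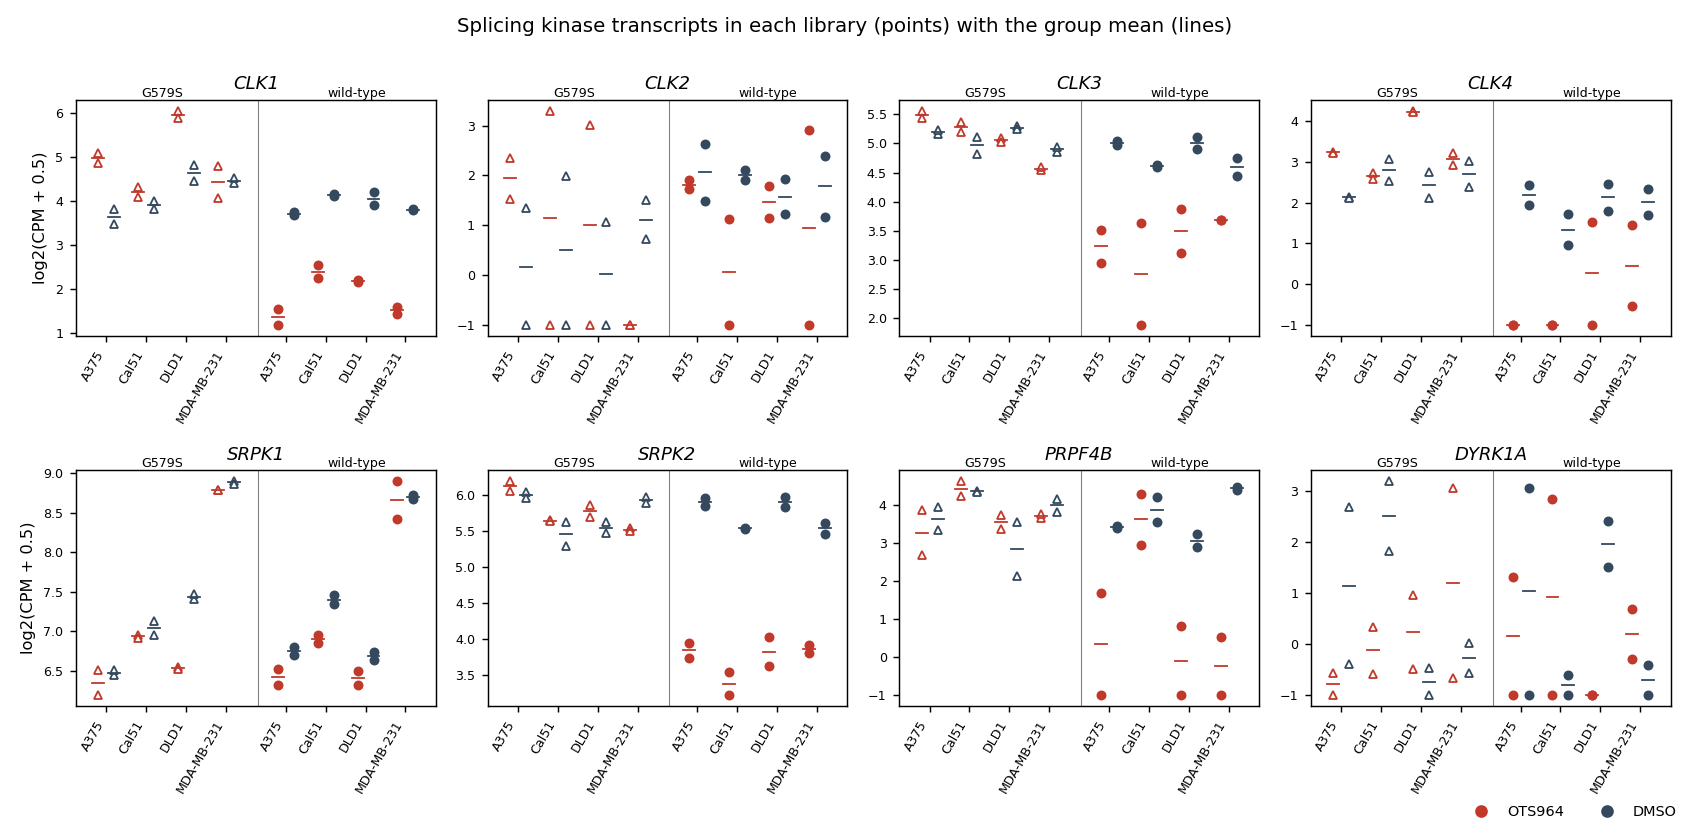
Level of each of the 8 members in all 32 libraries, as log2(CPM + 0.5) on the vertical axis, by line, with G579S cells as open triangles on the left and wild-type cells as filled circles on the right of each panel. OTS964 libraries are red and stand left of the blue DMSO libraries, and short lines are means of the 2 libraries. In wild-type cells the OTS964 points of CLK1, CLK3, CLK4 and SRPK2 lie below the DMSO points in all 4 lines, and a point at -1 is a library at 0 counts.

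OTS964 lowered most of these kinase transcripts in wild-type cells within 6 h. Across the 4 lines 6 of the 8 members fell and none rose: CLK1, CLK3 and CLK4 of the nuclear kinases, SRPK1 and SRPK2 of the cytoplasmic ones, and PRPF4B. Under the same test 32.0% of all 13677 genes fell, 29.9% rose and 61.8% changed in either direction, so a fall of a single member is common. The members' median log2 change was -1.70, against -0.06 over all genes.

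CLK1, the CLK kinase best known for autoregulated splicing, was at 1.76 and 2.40 CPM in the A375 wild-type OTS964 libraries, against 12.2 and 12.8 CPM with DMSO. In Cal51 it was at 5.28 and 4.23 CPM, against 16.7 and 17.2 CPM. In the libraries labelled DLD1 it was at 3.92 and 4.11 CPM, against 17.8 and 14.4 CPM. In MDA-MB-231 it was at 2.18 and 2.51 CPM, against 13.4 and 13.3 CPM. The OTS964 and DMSO groups did not overlap in any line, and the highest OTS964 library, 5.28 CPM, lay under the lowest DMSO library, 12.2 CPM. The share of all genes whose groups separate in this way was not counted, here and for the members and transcripts below. The log2 change across lines was -2.18 ± 0.17 (SE; edgeR quasi-likelihood test, adjusted p = 4.8e-08).

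SRPK2, which primes SR proteins in the cytoplasm, fell in every wild-type line. It lay between 8.84 and 15.8 CPM in the 8 wild-type OTS964 libraries, with a median of 13.2 CPM, against 43.5 to 62.2 CPM with DMSO, with a median of 52.5 CPM. The groups did not overlap, and the log2 change was -1.98 ± 0.09 (edgeR, adjusted p = 2.6e-09). CLK3 lay between 3.20 and 14.2 CPM with OTS964 (median 11.4 CPM) and between 21.2 and 34.1 CPM with DMSO (median 27.8 CPM). Its highest OTS964 library was below its lowest DMSO library, and its log2 change was -1.42 ± 0.23 (edgeR, adjusted p = 7.0e-05).

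CLK4, a close paralog of CLK1, fell as well, on few reads. It was at 0 reads in 5 of the 8 wild-type OTS964 libraries, in both A375 and both Cal51 libraries and in 1 labelled DLD1. The other 3 held 25, 44 and 3 reads, against 28 to 108 reads with DMSO. Under an assumed floor of 3 counts per library, it was at least 16.6-fold below the DMSO mean in A375 and 7.33-fold below it in Cal51. The OTS964 replicates labelled DLD1 held 25 and 0 reads, so an estimate of 0 is no firm floor. The fitted change across lines was -3.36 ± 1.03 (edgeR, adjusted p = 0.011). This fitted size depends on the prior count in the groups at 0, and it is no bound. Leaving out 1 library kept the call and moved the value to between -4.81 and -2.98.

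PRPF4B, the kinase of the tri-snRNP, fell in 3 of the 4 lines. Its OTS964 libraries held 0 and 33 reads in A375, 0 and 15 in those labelled DLD1 and 0 and 15 in MDA-MB-231, against 198 and 186, 191 and 124, and 414 and 449 reads with DMSO. In Cal51 it held 202 and 75 reads with OTS964 and 217 and 334 with DMSO, a log2 change of -0.15 ± 0.94 that did not pass the test. The change across lines was -2.93 ± 0.97 (edgeR, adjusted p = 0.016). Without the libraries labelled DLD1 wild-type it was -2.71 ± 1.17 and did not pass (edgeR, adjusted p = 0.071), while the other 5 called members still passed there.

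SRPK1 showed a small change on top of large differences between lines. It lay between 79.0 and 477 CPM with OTS964 (median 103 CPM) and between 98.6 and 423 CPM with DMSO (median 136 CPM), and these ranges overlapped. The log2 change across lines was -0.24 ± 0.08 (edgeR, adjusted p = 0.017). This size rests on the scaling: TMM factors had a median of 0.773 in the wild-type OTS964 libraries and 1.10 in the others, and with library totals alone the change was -0.83 ± 0.10. Library totals moved the median of all genes to -0.65, with 22.2% of the calls higher against 48.3% with TMM, and left the same number of members lower, 6 of 8. CLK2, at 0 to 138 reads with OTS964 and 33 to 102 with DMSO, had a log2 change of -0.53 ± 0.77 (edgeR, adjusted p = 0.57).

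Within lines, the test found 6 members lower in A375, where 25.0% of all genes fell: CLK1, CLK3, CLK4, SRPK1, SRPK2 and PRPF4B. It found 5 lower in Cal51, where 27.8% fell, the same ones except PRPF4B. It found 4 lower in the libraries labelled DLD1, where 27.7% fell, and 4 in MDA-MB-231, where 22.4% fell, in both cases CLK1, CLK3, SRPK2 and PRPF4B. No member was called higher in any line. The CLK1 change lay between -2.59 ± 0.24 in A375 and -1.83 ± 0.23 in Cal51, and that of SRPK2 between -2.20 in Cal51 and -1.71 in MDA-MB-231. In A375, SRPK1 lost its call without the first DMSO library (-0.39), the second DMSO library (-0.29) or the first OTS964 library (-0.24), and so did PRPF4B (-1.89 to -2.95). PRPF4B lost its call in the libraries labelled DLD1 without the first OTS964 library (-2.64). In A375, MDA-MB-231 and the libraries labelled DLD1, its fitted change moved below -10 once the OTS964 library with reads was left out, so no size is read from it within lines. In Cal51 the CLK3 change of -1.67 kept its call and moved to -1.01 without the first OTS964 library and -2.90 without the second. CLK3 lost its call in MDA-MB-231 without the second DMSO library or either OTS964 library (-0.78, -0.95 and -0.94).

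Each wild-type line was then set against the mean of the other 3 lines, which tests whether a response is larger or smaller in that line. No member was called in A375, where 4.67% of all genes were called, or in the libraries labelled DLD1, where 4.85% were called (edgeR). At an unadjusted p under 0.05 there were 0 and 2 members, and DESeq2 called 0 and 1. For CLK4 this comparison could not decide in A375 or Cal51. Both wild-type OTS964 libraries of each line were at 0 reads, and the standard errors were 9410 and 7835 on the log2 scale. In Cal51, where 13.9% of genes were called, PRPF4B stood out by a fitted 3.87 ± 1.19 on the log2 scale (edgeR, adjusted p = 0.035). This value lay between 3.01 and 6.39 when 1 library was left out. Each of the other 3 lines had 1 OTS964 library at 0 reads of PRPF4B, so no size is read from it. In MDA-MB-231, where 24.4% of genes were called, CLK4 was the member called (edgeR, adjusted p = 0.029), from fitted values in which A375 and Cal51 stood at 0 reads, so no size is read from it. The libraries labelled DLD1 had a like value for CLK4, 4.56 ± 1.56 against 4.83 ± 1.54, that was not called (edgeR, adjusted p = 0.12). The CLK4 call is therefore not read as particular to MDA-MB-231. Both calls were lost without some libraries, PRPF4B in 8 of 32 and CLK4 in 3 of 32, among them, for CLK4, the first of the 2 OTS964 libraries of MDA-MB-231 wild-type cells, with 44 reads of it against 3 in the second.

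Across the 4 G579S lines none of the 8 members was called in either direction by edgeR, where 2.86% of all 13985 genes were called, 1.37% higher and 1.49% lower. At an unadjusted p under 0.05 there were 3 members, and DESeq2 called 3, CLK1 and CLK4 higher and SRPK1 lower. CLK1 had a log2 change of 0.75 ± 0.20 (edgeR, adjusted p = 0.056), CLK4 of 0.80 ± 0.26 (adjusted p = 0.097) and SRPK1 of -0.31 ± 0.11 (adjusted p = 0.11). CLK1 passed without the second Cal51 G579S DMSO library (0.77) or the second MDA-MB-231 G579S OTS964 library (0.88). CLK3, SRPK2 and PRPF4B had changes of 0.01 ± 0.10, 0.02 ± 0.09 and 0.01 ± 0.23. For CLK3 and SRPK2 these averages join lines that moved in opposite directions. All OTS964 libraries of SRPK2 lay above all DMSO libraries in 3 lines and below them in 1. Those of CLK3 lay above in 2 lines and below in 2. In MDA-MB-231 G579S the SRPK2 change was -0.41 ± 0.14, not called (edgeR, adjusted p = 0.23).

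CLK1 was higher with OTS964 in G579S cells of A375 and DLD1. It was at 28.5 and 33.5 CPM in A375 G579S cells with OTS964, against 10.6 and 13.5 CPM with DMSO, and at 65.3 and 58.2 CPM in DLD1 G579S, against 27.8 and 21.2 CPM. In Cal51 G579S it was at 19.3 and 16.5 CPM, against 15.4 and 13.6 CPM, and in MDA-MB-231 G579S at 27.0 and 16.3 CPM, against 20.5 and 22.4 CPM. All OTS964 libraries lay above all DMSO libraries in A375, Cal51 and DLD1, and the groups overlapped in MDA-MB-231. CLK1 was called higher in A375 G579S, by 1.36 ± 0.22 (edgeR, adjusted p = 0.0040), where 0.656% of all genes were called, and in DLD1 G579S, by 1.33 ± 0.21 (adjusted p = 0.00015), where 23.5% were called. The A375 call was lost without the first DMSO library (1.20) or the second OTS964 library (1.24). In Cal51 G579S, with 0.391% of genes called, and MDA-MB-231 G579S, with 0.307%, no member was called by edgeR (0 and 1 at an unadjusted p under 0.05, and 0 and 1 by DESeq2).

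CLK4 stood at 8.97 ± 0.124 CPM with OTS964 and 3.88 ± 0.0489 CPM with DMSO in A375 G579S, and at 18.4 ± 0.259 CPM and 5.01 ± 1.70 CPM in DLD1 G579S (SD, n = 2 each). These groups did not overlap, but the changes of 1.21 ± 0.93 and 1.87 ± 0.94 did not pass the test (edgeR, adjusted p = 0.84 and 0.18). SRPK1 fell in DLD1 G579S by 0.91 on the log2 scale (edgeR, adjusted p = 3.2e-05), with 92.8 and 91.1 CPM with OTS964, against 169 and 176 CPM with DMSO. A comparison of each G579S line with the mean of the other 3 was added after these values were seen. It called CLK1 (0.78 ± 0.24, edgeR, adjusted p = 0.045) and SRPK1 (-0.80 ± 0.14, adjusted p = 0.001) in DLD1 G579S, where 12.0% of all genes were called. The CLK1 call was lost in 18 of the 32 fits that left out 1 library, with values between 0.59 and 0.99. No member was called in A375, Cal51 or MDA-MB-231 G579S, where 0.0698%, 4.87% and 0.831% of genes were called (edgeR; 1, 1 and 3 members at an unadjusted p under 0.05, and 0, 0 and 2 by DESeq2).

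**Figure D2:**
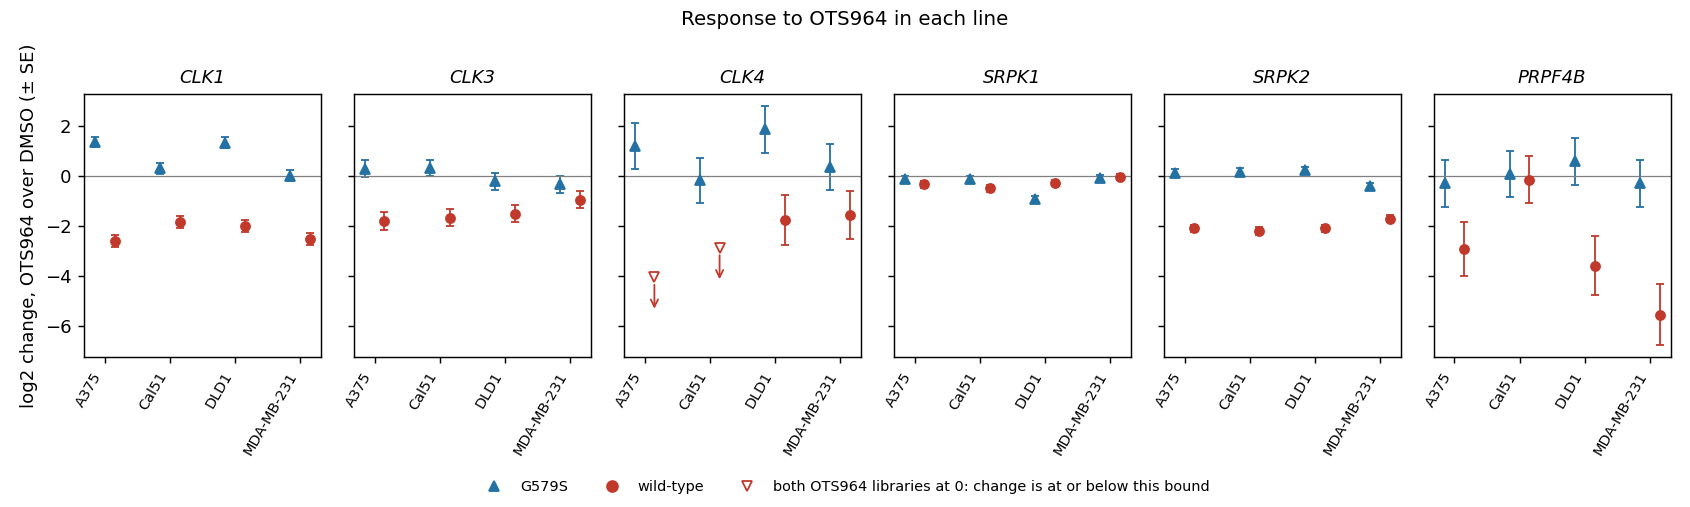
Log2 change with OTS964 over DMSO (vertical axis, ± SE) of 6 members in each line, with G579S cells as blue triangles on the left and wild-type cells as red circles on the right of each pair. Open red triangles with arrows mark CLK4 in A375 and Cal51, where both wild-type OTS964 libraries were at 0. There the change is at or below the value drawn under an assumed floor of 3 counts per library. CLK1 is above 1 in A375 and DLD1 G579S cells and below -1.8 in all wild-type lines.

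The difference between the responses was tested directly, as wild-type minus G579S across the 4 lines. It was called negative for 5 of the 8 members, where 25.8% of all 14319 genes had a negative difference called and 50.1% were called in either direction. CLK1 differed by -2.98 ± 0.25 (edgeR, adjusted p = 5.1e-10), SRPK2 by -2.06 ± 0.14 (8.4e-12) and CLK3 by -1.49 ± 0.25 (1.7e-05). CLK4 differed by -3.99 ± 0.94 (edgeR, adjusted p = 0.00086) and PRPF4B by -2.97 ± 0.90 (0.0070). Without all DLD1 libraries PRPF4B differed by -2.52 and did not pass (edgeR, adjusted p = 0.057). SRPK1 differed by 0.02 ± 0.14 (edgeR, adjusted p = 0.91) and by -0.41 ± 0.17 with library totals alone, so its sign rests on the scaling.

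Within A375, where 33.9% of genes were called, and within Cal51, where 45.8% were called, the differences of CLK1, CLK3, CLK4 and SRPK2 passed, all negative. In MDA-MB-231, with 26.5% of genes called, those of CLK1, SRPK2 and PRPF4B passed, and that of PRPF4B was lost without the first DMSO library of G579S cells (-5.09) or the first OTS964 library of wild-type cells (-4.18). In the libraries labelled DLD1, with 36.7% of genes called, CLK1, CLK3, CLK4, SRPK2 and PRPF4B were called negative and SRPK1 was called positive at 0.63 ± 0.18 (edgeR, adjusted p = 0.0083). When 1 of the 32 libraries was left out, CLK4 lost its call in 23 fits, CLK3 in 8 (-1.39 to -0.95) and PRPF4B in 6 (-4.36 to -3.23), while CLK1, SRPK2 and SRPK1 kept theirs. There, cells that differ in their markers are compared, and the genotype and the cell type cannot be told apart.

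The genotypes were also compared without the inhibitor. Under DMSO, G579S minus wild-type across lines called no member with edgeR, where 2.84% of 14062 genes were called, with 1 member at an unadjusted p under 0.05 and 1 by DESeq2. That member was CLK3, at 27.8 to 38.7 CPM in G579S and 21.2 to 34.1 CPM in wild-type DMSO libraries, a difference of 0.28 ± 0.07 (edgeR, adjusted p = 0.053). Without all DLD1 libraries no member was called either, with CLK3 at 0.29 ± 0.08 (edgeR, adjusted p = 0.098) and SRPK1 at -0.15 ± 0.09, against 0.08 ± 0.13 with them. No member was called in A375, Cal51 or MDA-MB-231, where 9.77%, 17.0% and 7.30% of genes were called (edgeR; 1, 2 and 2 members at an unadjusted p under 0.05, and 0, 1 and 2 by DESeq2). In the libraries labelled DLD1, where 49.2% of genes were called, CLK1 (0.60 ± 0.21) and SRPK1 (0.75 ± 0.12) were higher and SRPK2 (-0.36 ± 0.14) was lower in G579S. CLK1 lost its call without the first G579S (0.39) or the second wild-type (0.46) DMSO library, and SRPK2 without either G579S library or the second wild-type one (-0.44 to -0.29). SRPK1 kept its call in all 32 fits that left out 1 library.

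SRPK1 levels also differed between the lines. In wild-type DMSO cells it stood at 176 ± 4.61 TPM in MDA-MB-231, 72.4 ± 3.20 TPM in Cal51, 40.0 ± 2.26 TPM in A375 and 38.7 ± 1.83 TPM in those labelled DLD1 (SD, n = 2 each). The last pair overlapped and the others did not. In G579S DMSO cells the order was 212 ± 6.10 TPM in MDA-MB-231, 69.6 ± 0.441 TPM in DLD1, 51.3 ± 12.7 TPM in Cal51 and 31.6 ± 0.846 TPM in A375. SRPK2, its paralog, lay within 22.1 to 27.9 TPM in all wild-type DMSO libraries. In G579S DMSO libraries it ranged from 15.9 TPM in Cal51 to 33.7 TPM in MDA-MB-231.

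The transcripts of CLK1 moved in opposite directions in wild-type cells. NM_004071, the main transcript, was at 0 reads in 7 of the 8 wild-type OTS964 libraries and at 36 reads in the remaining one, the first from MDA-MB-231. With DMSO it had 216 to 383 reads, with a median of 272. NM_001162407, whose first exon lies in the first intron of NM_004071 as shown above, had 25 and 29 reads in A375, 56 and 44 in Cal51, 41 and 49 in the libraries labelled DLD1 and 7 and 40 in MDA-MB-231 with OTS964. With DMSO it had 0 and 14, 8 and 33, 0 and 3, and 0 and 3 reads in the same lines. Its OTS964 libraries lay above its DMSO libraries in all 4 lines. Thus nearly all CLK1 reads left in wild-type cells after OTS964 were assigned to the transcript that includes intron sequence, 291 of 327 over the 8 libraries, against 61 of 2308 with DMSO.

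Tested as usage within the gene, CLK1 was called in wild-type cells (edgeR's diffSpliceDGE, Simes-adjusted p = 0.0030), where 5.33% of 6403 genes with several transcripts were called. Relative to the gene, NM_001162407 moved by 3.95 on the log2 scale and NM_004071 by -3.91. The call did not hold without the libraries of A375, of Cal51 or of DLD1 (adjusted p = 0.059, 0.089 and 0.078), with values of 3.58 to 4.41, and it held in all 16 fits that left out 1 library. A tool that shares reads between transcripts places them by an estimate, so reads from unspliced CLK1 RNA and reads from NM_001162407 cannot be told apart here.

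In G579S cells no shift between the CLK1 transcripts was called. NM_004071 had 249 to 1143 reads with OTS964 (median 484) and 186 to 506 with DMSO (median 324). NM_001162407 had 3 to 44 reads with OTS964 (median 18.5) and 3 to 39 with DMSO (median 14). Its usage changed by -0.19 on the log2 scale (diffSpliceDGE, adjusted p = 1), and 0.106% of 6619 genes were called. None of the 3 members tested there was called, nor was any at an unadjusted p under 0.05.

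**Figure D3:**
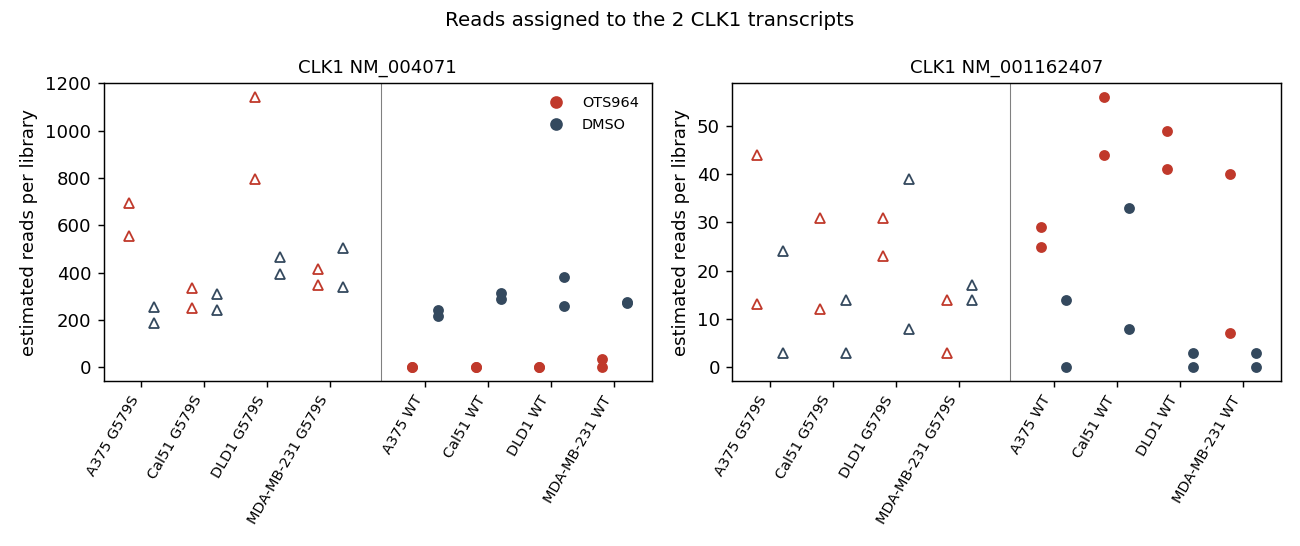
Estimated reads per library (vertical axes, with different ranges) on the 2 CLK1 transcripts, for G579S cells as open triangles on the left and wild-type cells as filled circles on the right, with OTS964 in red left of DMSO in blue. NM_004071 is at 0 in 7 of 8 wild-type OTS964 libraries, while NM_001162407 has 7 to 56 reads there.

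For CLK3 and SRPK2 no shift between transcripts was called. The CLK3 transcript NM_003992 had 34 to 157 reads with OTS964 and 307 to 558 with DMSO in wild-type cells, and NM_001130028, which starts at another first exon, had 0 to 88 and 20 to 155. Their usage changes of -0.01 and 0.06 were not called (diffSpliceDGE, adjusted p = 1 for both). SRPK2 reads were mostly on NM_182692, with 83 to 205 reads with OTS964 and 818 to 1106 with DMSO, and its usage was not called either (-0.05, adjusted p = 1). The SRPK2 transcript XM_006716098 and the DYRK1A transcript NM_130438 were at 0 reads in all 32 libraries.

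Among 9 related kinases of the DYRK, HIPK and SRPK families, 7 were tested in wild-type cells, 5 fell and 1 rose. Of all genes tested there, 32.0% fell and 29.9% rose. DYRK3, which dissolves nuclear speckles in dividing cells, fell by 3.66 on the log2 scale, DYRK1B by 1.87 and HIPK1 by 1.34, while DYRK2 rose by 1.26 (edgeR, adjusted p = 0.0011, 0.020, 0.011 and 0.014). With library totals alone DYRK2 was at 0.64 and was not called. The list's median was -0.69. In G579S cells 8 were tested and none was called (edgeR), where 2.86% of all genes were called, with DYRK3 at -0.26 ± 0.13.

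The SR proteins are substrates of both families. Of the 14 SR proteins tested, 5 rose and 4 fell in wild-type cells, with a median of 0.11. Of all genes 29.9% rose and 32.0% fell, so no result about the list is read from these counts. SRSF8 rose by 1.41 ± 0.36, SRSF2 by 1.08 ± 0.26 and SRSF9 by 0.90 ± 0.08, and SRSF12 fell by 1.49, SRSF11 by 1.13 and SRSF5 by 1.00. With library totals alone 2 rose and 9 fell, and SRSF1 and SRSF3 changed sign, so the split of this list rests on the scaling. In G579S cells 2 rose, SRSF1 (0.34 ± 0.04) and SRSF2 (0.62 ± 0.13), and SRSF5 fell by 1.07 (edgeR, adjusted p = 0.0025, 0.025 and 0.019). There 1.37% of all genes rose and 1.49% fell.

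Of the 15 tri-snRNP proteins, on which PRPF4B acts, 10 rose and 3 fell in wild-type cells, with a median of 0.69. Of all genes 29.9% rose and 32.0% fell. The largest values were 1.05 for SNU13, 1.03 for PPIH and 0.94 for PRPF8, and PRPF6, a known PRPF4B substrate, changed by 0.27 ± 0.10. With library totals alone 6 rose and 7 fell, the median was 0.10, and PRPF6 stood at -0.33. In G579S cells 5 rose, among them PRPF3 by 0.81 ± 0.15 and PRPF6 by 0.29 ± 0.06, and none fell. There 1.37% of all genes rose and 1.49% fell.

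Of 7 genes for SR protein phosphatases and their importer, 3 rose and 2 fell in wild-type cells, with a median of 0.03. Of all genes 29.9% rose and 32.0% fell, so no result about the list is read from these counts. PPP1R8, a nuclear inhibitor of protein phosphatase 1, fell by 4.73 (SE 0.45; edgeR, adjusted p = 4.4e-07). TNPO3, the importer of phosphorylated SR proteins, fell by 0.92, and PPP2R1A and PPP1CA rose by 1.11 and 0.95. With library totals alone 2 rose and 4 fell, with these 4 genes called in the same directions. In G579S cells 1 of 7 was called, PPP2R1A at 0.24 ± 0.06, where 2.86% of all genes were called.

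In the CDK11 complex, CCNL1 (cyclin L1) rose by 2.54 ± 0.45, and SAP30BP and CDK11A fell by 1.21 and 0.31 in wild-type cells. The other 2 of the 5, CDK11B and CCNL2, were not called, and the list's median was -0.12. Of all genes 29.9% rose and 32.0% fell. With library totals alone CCNL1 rose and the other 4 fell, with a median of -0.72, so the split of this list rests on the scaling as well. In G579S cells CCNL1 rose by 1.30 ± 0.27 (edgeR, adjusted p = 0.025) and the other 4 were not called, where 2.86% of all genes were called. SF3B1, a spliceosome subunit phosphorylated by CDK11 and DYRK1A, was at 0.69 ± 0.09 in wild-type cells, called with TMM and at 0.10 and not called with library totals, and at 0.26 ± 0.09 in G579S cells, not called.

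**Figure D4:**
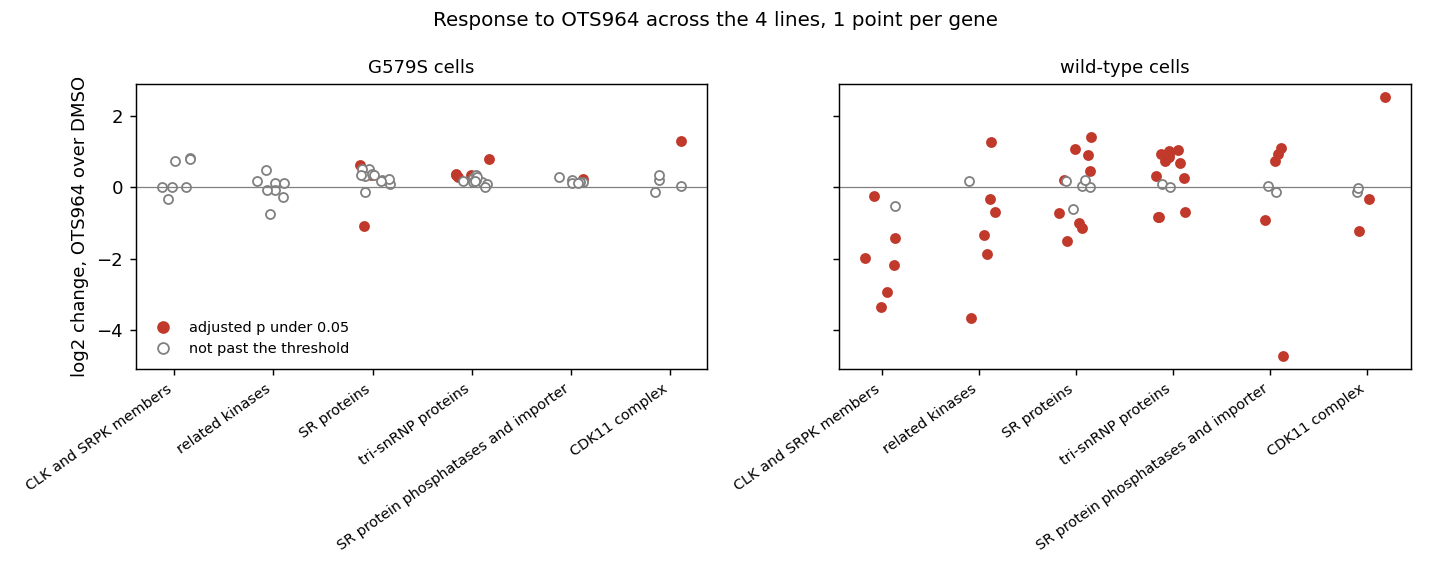
Log2 change with OTS964 over DMSO across the 4 lines (vertical axis, TMM scaling), 1 point per tested gene, in G579S cells on the left and wild-type cells on the right. Filled red points passed an adjusted p of 0.05 and open grey points did not. DYRK1A is not drawn. In wild-type cells 6 members are filled and below 0, and in G579S cells none is filled.

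The genes whose levels over the 16 groups ran closest to a member were found by the root mean square difference of centred log2 group means. They were GOSR1 (0.18) and ZCCHC7 (0.21) for SRPK2, ORC5 (0.23) and ASF1A (0.26) for CLK3, ARHGAP45 (0.24) and LMLN (0.28) for SRPK1, and TRAF6 (0.41) and PHLPP2 (0.41) for CLK1. The distances were larger for the sparse members, with MIER3 (0.80) and ZNF608 (0.86) for PRPF4B and BRD10 (0.88) and HINFP (0.91) for CLK4. For CLK2 they were TERT (1.41) and SLX1B (1.52), and for DYRK1A SRGAP2 (1.54) and COMMD3-BMI1 (1.58), both with libraries at 0 reads. SRPK2 itself spanned 2.80 and CLK1 4.89 on the log2 scale over the groups.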

How the data were processed

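Per the file headers, the authors deposited 1 table per library with TPM and estimated counts for 87398 transcripts. TPM was scaled by the authors to library total and effective length, which is a further column, and the deposited estimated counts are not normalized. No tool is given in the sources used here, and of builds the submitters' processing notes list GRCm38 and mm10, both of mouse. The identifiers are human RefSeq, and 42587 (48.73%) matched a gene, so sequences and coordinates come from human annotation and not from the files. Counts were summed per gene, rounded and tested with edgeR 4.0.16 in R 4.3.3 (quasi-likelihood F test, TMM scaling, low-count filter by group, Benjamini-Hochberg threshold 0.05). CPM values use TMM library sizes. Fits across lines had the line as a block, and contrasts within lines came from 1 fit of 16 groups. DESeq2 1.42.0 served as an alternative. On simulated counts of 13677 genes, 98 were changed by 1 and 102 by 2 on the log2 scale. The wild-type fit recovered 48.0% and 66.7% of them. In the data 61.8% of genes were called, far more than were changed there, so these shares do not give the recovery in the data. The members, gene lists and tests were chosen with earlier results of these data known. All members, the 2 nearest genes of each, and up to 3 genes per list with the largest called change in wild-type cells are named. DYRK2, PRPF6, PRPF3, TNPO3, SRSF1, SRSF3, SRSF5, SRSF9, SRSF11 and the called genes of G579S cells were named after their values were seen. Protein sequences were not used here.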

Additional observations from a re-analysis of the deposited data

Results flagged for a closer look

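Each value below comes from a test of the difference between groups that passed at an adjusted p of 0.05 with edgeR, and no explanation was weighed. For the response of wild-type minus G579S cells across lines these were CLK1 at -2.98, CLK3 at -1.49, CLK4 at -3.99, SRPK2 at -2.06 and PRPF4B at -2.97 (log2), with G579S responses of 0.75, 0.01, 0.80, 0.02 and 0.01 and wild-type responses of -2.18, -1.42, -3.36, -1.98 and -2.93. Among wild-type lines, PRPF4B in Cal51 stood at 3.87 and CLK4 in MDA-MB-231 at 4.83 over the mean of the other 3 lines. Both values are fitted and neither is a bound. A375 and Cal51 were at 0 reads of CLK4 with OTS964, and for PRPF4B each of the other 3 lines had an OTS964 library at 0 reads. CLK4 in the libraries labelled DLD1 stood at 4.56 in the same comparison and was not called. Among G579S lines, in a comparison added after the values were seen, CLK1 in DLD1 stood at 0.78 and SRPK1 in DLD1 at -0.80 over the mean of the other 3 lines. Groups of 2 libraries are too small for a check on single outlying samples.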

How the results depend on the processing

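CLK1, CLK3, CLK4, SRPK1 and SRPK2 kept their direction and their call in wild-type cells across lines in all 25 alternatives, and so did CLK1, CLK3, CLK4 and SRPK2 in the 40 alternatives for wild-type minus G579S; PRPF4B failed once in each, without DLD1. Results with few calls moved more, and the cause was not tested. In G579S cells 831 genes were called with library totals, 1769 with DESeq2 (3 members) and 0 under the replicate block, against 400, with 11.9% of calls higher by library totals against 48.0%. For wild-type minus G579S that share was 25.8% against 48.5%, and SRPK1 reversed to -0.41 with library totals. Under DMSO, G579S against wild-type gave 1442 genes (1 member) by DESeq2, 1 member with DESeq2 size factors and 0 genes under the replicate block, against 399. Numbers did not pair samples (correlations of -0.04 to 0.05). For transcript usage in wild-type cells 147, 136 and 129 genes were called without A375, Cal51 and DLD1, with 0 members each, against 341; in G579S cells 17 under the replicate block, 4 without DLD1 and 3 without MDA-MB-231, against 7. Within lines, member counts under DMSO moved to 1 by DESeq2 and the replicate block in Cal51 and 2 by DESeq2 in MDA-MB-231, and DESeq2 gave 1 for the MDA-MB-231 G579S response. For a line against the others, wild-type Cal51 gave 2 members with library totals and 0 with the replicate block, wild-type DLD1 1 by DESeq2, wild-type MDA-MB-231 2 by DESeq2 and 0 with the replicate block, DLD1 G579S 1 with library totals and MDA-MB-231 G579S 2 by DESeq2.

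Leaving out 1 library gave 100 to 1662 genes and 0 to 1 members for the G579S response, 89 to 488 genes for the genotypes under DMSO, 5 to 17 for usage in G579S cells, 0 to 1 members for A375 G579S and for the genotypes in Cal51 and MDA-MB-231, 1 to 3 for the genotypes in DLD1, 3 to 6 for wild-type minus G579S in DLD1, 0 to 2 for wild-type Cal51, wild-type MDA-MB-231 and G579S MDA-MB-231 against the other lines, 0 to 1 for wild-type DLD1 and 1 to 2 for G579S DLD1. Few reads limit CLK4, with at most 108 in wild-type cells. CLK2 and DYRK1A were at 0 reads in 9 of 32 libraries each, with up to 166 and 174 reads in others, and the cause was not tested.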
